A study of Homo sapiens with 6 samples.

Results

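The genes described here are 47 regulators of pre-mRNA splicing, taken by symbol from a table of 57688 gene rows: 13 SR proteins (SRSF1 to SRSF11, TRA2A and TRA2B), 6 kinases that phosphorylate them, 17 hnRNPs, 3 polypyrimidine tract-binding (PTB) proteins, 5 regulators whose expression differs between tissues, and 3 factors of the 3' splice site. All 47 symbols were in the table, and 44 had a mean of at least 1 FPKM (reads scaled to gene length and library depth) over the 6 libraries. PTBP2 and ESRP1 lay below that level and U2AF1 was listed at 0 in every library. Expression was compared in WM3248, a human cell line from a vertical growth phase (VGP) primary melanoma. The siPGC1a group (n = 3) received an siRNA against PPARGC1A, which encodes the transcriptional coactivator PGC1-alpha, and the siNC group (n = 3) received the AllStars negative control siRNA. Both groups were transfected with a lipid reagent at 30 nM and RNA was taken after 48 h. The knockdown rests on 1 siRNA and 1 cell line. Nothing in the labels ties the replicates to separate cultures, and the spread behind each p-value may therefore be technical.

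SR proteins carry RNA-recognition motifs and a tail rich in arginine and serine. They bind enhancer sequences in exons and help U1 snRNP and U2AF to mark the splice sites. SRPK kinases phosphorylate the tail in the cytoplasm, which lets SR proteins enter the nucleus, and CLK kinases phosphorylate it further inside the nucleus. hnRNPs coat nascent transcripts, and many of them oppose SR proteins by silencing splice sites. Many SR and hnRNP genes hold conserved poison exons whose inclusion sends the transcript to decay, which is how several of these proteins limit their own level. PGC1-alpha itself holds an RNA-recognition motif and a stretch rich in arginine and serine, and is known to associate with splicing factors. The values used here are 1 number per gene and library, so that poison-exon and coding isoforms are summed.

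Most of the SR proteins and hnRNPs were slightly more abundant in siPGC1a cells, and their kinases were not called in either direction. Of the 44 members above 1 FPKM, 25 were higher, 3 were lower and 16 did not pass (limma on log2(FPKM + 1), two-sided, Benjamini-Hochberg adjusted over 12020 tested genes, threshold 0.05). The members thus gave 56.8% higher and 6.82% lower. Over all tested genes 25.6% were higher and 22.5% lower, 48.1% in all. Tested members were also more abundant than most genes, with a median level of 22.9 FPKM against 7.02 FPKM for all tested genes. Among genes with a mean of at least 5 FPKM 34.6% were higher and 22.1% lower. The median log2 fold change, siPGC1a minus siNC, was 0.14 over the 44 members and 0.01 over all tested genes. The groups did not overlap for 31 of the 44 (70.5%), against 57.2% of all tested genes.

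The targeted transcript and the identity of the cells were checked first. PPARGC1A stood at 0.4, 0.354 and 0.413 FPKM in siPGC1a libraries and at 0.932, 1.04 and 0.947 FPKM in siNC libraries, with no overlap (log2 fold change -0.51, SE 0.066, limma adjusted p = 0.000234). With 3 libraries a group, exact permutation (two-sided) cannot go below p = 0.1, which is the value it gave. Depth recovered from the steps of the values was 25140000 to 26430000 reads per library. Summed markers of the melanocyte lineage (8 genes) were 1415 to 1424 FPKM in siPGC1a and 1440 to 1480 FPKM in siNC libraries, without overlap. The near-equal sums hide opposite moves. S100B was higher (924 ± 24.2 FPKM in siPGC1a and 802 ± 9.71 FPKM in siNC libraries, SD, n = 3 each, limma adjusted p = 0.000841), whereas DCT, an enzyme of melanin synthesis, was lower (253 ± 12.4 FPKM in siPGC1a and 394 ± 11.2 FPKM in siNC libraries, limma adjusted p = 5.89e-06). MITF (ratio 0.762), PMEL (0.714) and MLANA (0.547) were lower as well, SOX10 and TYR did not pass, and TYRP1 was below the filter. The part of these lineage changes in the results was not tested. Of the other cell types, 5 fibroblast markers summed to 9.68 to 11.2 FPKM in siPGC1a and 13.9 to 14.6 FPKM in siNC libraries, with 3 of them above 1 FPKM and 0 at 0 throughout. The fibroblast sums did not overlap between groups, and their part in the results was not tested. Keratinocyte markers (5 genes, almost all of it KRT10) summed to 20.7 to 25.9 against 20.6 to 21.5 FPKM, immune markers (5 genes) to 1.7 to 2.49 against 1.6 to 1.97 FPKM, and the 3 endothelial markers listed to 0.155 to 0.222 against 0.249 to 0.362 FPKM, siPGC1a before siNC each time. Of the keratinocyte and immune lists, only KRT1 and PTPRC were at 0 in every library. Others were low but above 0 throughout, among them KRT14 (0.299 to 0.52 FPKM), CD68 (0.647 to 1.267 FPKM) and CD14 (0.768 to 1.285 FPKM). In bulk RNA, fewer cells of a type and less RNA per cell cannot be told apart.

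SR proteins recognise exons, and 9 of the 13 were higher, 1 was lower and 3 did not pass. TRA2A, a splicing activator related to the Drosophila Transformer-2 protein, changed most. Its level was 20.9, 20.9 and 22.2 FPKM in siPGC1a libraries and 15.2, 13.7 and 14.4 FPKM in siNC libraries. All siPGC1a values lay above all siNC values, and the rise was 47.9% of the siNC mean (21.3 ± 0.742 against 14.4 ± 0.732 FPKM, SD, n = 3 each; log2 fold change 0.53, SE 0.048, limma adjusted p = 2.83e-05). Its log2 fold change exceeded that of 98.1% of tested genes. Its paralog TRA2B rose by 10.8% only, to 10.7 ± 0.247 FPKM in siPGC1a against 9.61 ± 0.281 FPKM in siNC libraries (n = 3 each, limma adjusted p = 0.0263). The difference between the paralogs was not tested.

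SRSF3 and SRSF7, SR proteins that also link splicing to mRNA export, rose to a like extent. SRSF7 had 31.5, 32.6 and 34.7 FPKM in siPGC1a and 28.6, 26.7 and 26.1 FPKM in siNC libraries (log2 fold change 0.27, SE 0.05, limma adjusted p = 0.0018). SRSF3 had 30.8, 30.1 and 33.7 FPKM in siPGC1a and 27.5, 25.4 and 25.2 FPKM in siNC libraries (log2 fold change 0.27, SE 0.053, limma adjusted p = 0.00262). Neither gene's groups overlapped, and siPGC1a replicate 3 was the highest library for both. SRSF11, SRSF9 and SRSF10 were higher by 17.8%, 15.0% and 14.0%, and SRSF5 and SRSF4 by 9.55% and 9.14%. The groups of these 5 genes did not overlap either. SRSF9 is uncertain, since 1729 of its 3744 exon bases overlap exons of GATC on the other strand.

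SRSF8 was the SR protein that fell. It is an expressed retrocopy related to SRSF2, so reads may be shared between the pair. SRSF8 had 13.8, 13.7 and 14.4 FPKM in siPGC1a libraries and 16.5, 16.1 and 16.9 FPKM in siNC libraries, with no overlap (ratio 0.846, log2 fold change -0.23, SE 0.042, limma adjusted p = 0.00174). SRSF2 itself, which binds exonic enhancers and was the most abundant SR transcript, had 57.8, 55.9 and 60.2 FPKM in siPGC1a and 58.6, 57.6 and 57.3 FPKM in siNC libraries. Its groups overlapped (log2 fold change 0.0025, SE 0.039, limma adjusted p = 0.963). The level of SRSF2 is uncertain, since 1106 of its 3017 exon bases overlap exons of MFSD11, which was lower, on the other strand. SRSF6 also did not pass, at 22.0 ± 0.801 FPKM in siPGC1a and 22.1 ± 1.23 FPKM in siNC libraries (n = 3 each, limma adjusted p = 0.959).

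SRSF1, a founding SR protein and a known oncoprotein, had the largest SE of the 44 tested members. It stood at 9.31, 7.94 and 9.5 FPKM in siPGC1a libraries and 8.68, 7.17 and 7.39 FPKM in siNC libraries, so that the groups overlapped through siPGC1a replicate 2 and siNC replicate 1 (log2 fold change 0.18, SE 0.079, limma adjusted p = 0.0843). Without siPGC1a replicate 2 the adjusted p was 0.019, and without siNC replicate 1 it was 0.0188. It also passed with sample weights (0.0178) and with a replicate block (0.03). The level of SRSF1 is uncertain, since 440 of its 3340 exon bases overlap exons of AC015813.5 on the other strand. Calls of 4 SR proteins depend on single libraries, and those of SRSF4, SRSF5 and TRA2B also ended under quantile scaling (adjusted p of 0.167, 0.183 and 0.0709). The call of SRSF4 ended without any 1 of siPGC1a replicates 1, 2 and 3 or siNC replicates 2 and 3 (adjusted p of 0.0607 to 0.15), and that of SRSF5 without siPGC1a replicate 1 or 2 or siNC replicate 2 or 3 (0.068 to 0.168). The calls of SRSF10 (0.0592 to 0.0752) and TRA2B (0.0664 to 0.0973) ended without siPGC1a replicate 3, siNC replicate 2 or siNC replicate 3. Without siNC replicate 2, and likewise without siNC replicate 3, 5 SR proteins were higher in place of 9.

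**Figure D1:**
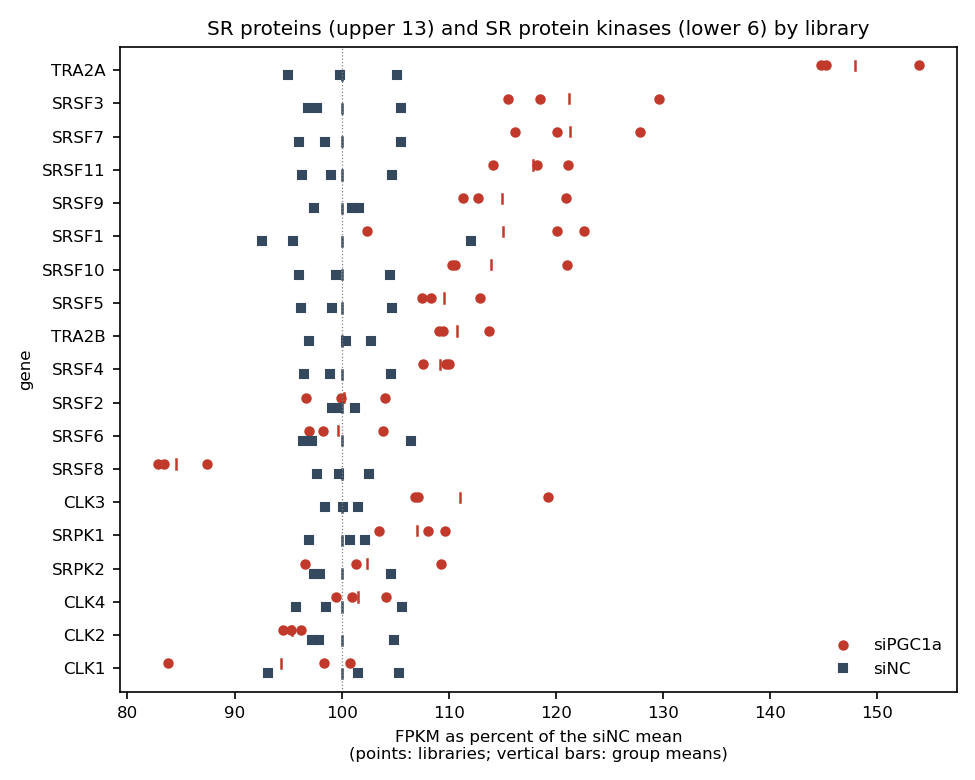
FPKM of each SR protein and SR protein kinase in each library, as percent of that gene's siNC mean (x axis), with siPGC1a libraries as red circles above siNC libraries as dark squares and group means as vertical bars. TRA2A stands farthest to the right with all siPGC1a libraries above 140%, SRSF8 lies to the left without overlap, and the group means of the kinases lie closer to 100%.

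The kinases of SR proteins came out as 0 higher and 0 lower, with 6 that did not pass, and none passed at an adjusted p under 0.05 in any of the other settings run. Their log2 fold changes ran from -0.08 to 0.12. SRPK1, the cytoplasmic SR protein kinase and the most abundant of the 6, had 19.6, 18.8 and 19.9 FPKM in siPGC1a and 18.3, 17.6 and 18.6 FPKM in siNC libraries (log2 fold change 0.09 with an SE of 0.042 and a limma adjusted p = 0.0937). The SRPK1 groups did not overlap, though they lay close. The groups did not overlap for CLK3 (4.2 ± 0.266 against 3.78 ± 0.0581 FPKM, siPGC1a and siNC, n = 3 each, limma adjusted p = 0.0836) or CLK2 (14.3 ± 0.123 against 15.0 ± 0.635 FPKM, limma adjusted p = 0.247) either. That makes 3 of the 6 kinases (50.0%) without overlap, against 57.2% of all tested genes. CLK1, a nuclear kinase whose own transcript keeps introns in many cells, had a mean of 7.07 ± 0.691 FPKM in siPGC1a and 7.49 ± 0.469 FPKM in siNC libraries (n = 3 each, limma adjusted p = 0.386). On the other strand the exons of CLK3 overlap EDC3 by 701 bases and those of SRPK2 overlap KMT2E, which was lower, by 98 bases. A p that misses the threshold does not show that the kinases were alike in both groups.

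hnRNPs package nascent RNA, and 13 of the 17 were higher, 0 were lower and 4 did not pass. The list's median log2 fold change was 0.19. Summed over the 17 genes the level was 894.4, 899.6 and 926.1 FPKM in siPGC1a libraries and 792.6, 767.0 and 794.0 FPKM in siNC libraries. The sums did not overlap and their ratio was 1.16. For the 13 SR proteins the sums were 303.0, 299.9 and 318.0 FPKM in siPGC1a and 286.8, 271.7 and 271.3 FPKM in siNC libraries, a ratio of 1.11, and for the 6 kinases the ratio was 1.01 with overlapping groups.

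HNRNPAB, an hnRNP that also binds RNA-transport and promoter elements, rose most. It had 98.9, 103.1 and 109.9 FPKM in siPGC1a libraries and 80.05, 74.35 and 80.34 FPKM in siNC libraries, with a gap between the groups (ratio 1.33, log2 fold change 0.40, SE 0.049, limma adjusted p = 0.000155). HNRNPA2B1, a reader of exonic silencers and the most abundant member, had 127.0, 128.8 and 135.1 FPKM in siPGC1a and 106.9, 98.2 and 102.5 FPKM in siNC libraries (ratio 1.27, log2 fold change 0.34, SE 0.043, limma adjusted p = 0.000184). HNRNPL, which binds CA-rich RNA, had 29.7, 32.5 and 32.5 FPKM in siPGC1a and 25.3, 26.3 and 25.3 FPKM in siNC libraries (ratio 1.23, log2 fold change 0.29, SE 0.046, limma adjusted p = 0.000723). In each of these 3 genes every siPGC1a library exceeded every siNC library. On the other strand the exons of HNRNPAB overlap PHYKPL by 196 bases and those of HNRNPA2B1 overlap CBX3 by 368 bases, so reads of either partner could add to these levels.

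The other 10 hnRNPs that rose did so by 9.46 to 20.3% of their siNC mean. HNRNPU, a nuclear scaffold protein, rose by 20.3% to 27.4 ± 0.913 FPKM in siPGC1a, against 22.8 ± 0.787 FPKM in siNC libraries (n = 3 each, limma adjusted p = 0.00109). Its exons overlap those of COX20 on the other strand by 3502 bases, which makes its level uncertain because no source used here gives the strand setting of the counting. HNRNPM rose by 18.1%, HNRNPA3 by 18.1%, HNRNPD, which binds AU-rich elements and promotes mRNA decay, by 17.9%, and HNRNPK, which binds C-rich RNA, by 14.7%. HNRNPA3 and HNRNPK are uncertain too, as the table holds 16 pseudogene rows of HNRNPA3, summing to 0.857 to 1.36 FPKM per library, and 5 of HNRNPK, summing to 2.66 to 3.5 FPKM. HNRNPH1 and its close X-linked relative HNRNPH2, which bind G runs and may share reads, rose by 14.7% and 10.3%, and HNRNPR, HNRNPF and HNRNPA0 by 11.8%, 11.4% and 9.46%. The call of HNRNPA0 ended without siPGC1a replicate 2 (adjusted p = 0.0707), siNC replicate 1 (0.0842) or siNC replicate 3 (0.0752), that of HNRNPH2 without siNC replicate 2 (0.0511) or siNC replicate 3 (0.0666), and that of HNRNPR without siNC replicate 2 (0.0549). Quantile scaling ended the calls of HNRNPA0, HNRNPH2 and HNRNPR as well (0.103, 0.146 and 0.0924) and that of HNRNPF (0.352).

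The 4 hnRNPs that did not pass were HNRNPA1, HNRNPC, HNRNPH3 and HNRNPUL1, with log2 fold changes from -0.0041 to 0.05. On the other strand the exons of HNRNPH3 overlap RUFY2, which was higher, by 115 bases. HNRNPA1, the best known antagonist of SRSF1, stood at 18.9 ± 1.18 FPKM in siPGC1a and 18.6 ± 0.938 FPKM in siNC libraries (n = 3 each, limma adjusted p = 0.753). The table holds 75 rows of HNRNPA1 pseudogenes, 61 of them above 0 and summing to 2.47 to 3.33 FPKM per library, so the level of HNRNPA1 is uncertain. HNRNPC, which keeps Alu exons silent, stood at 56.3 ± 1.82 FPKM in siPGC1a and 54.2 ± 1.15 FPKM in siNC libraries (n = 3 each, limma adjusted p = 0.281), and 9 pseudogene rows, summing to 0.951 to 1.88 FPKM per library, make it uncertain as well.

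**Figure D2:**
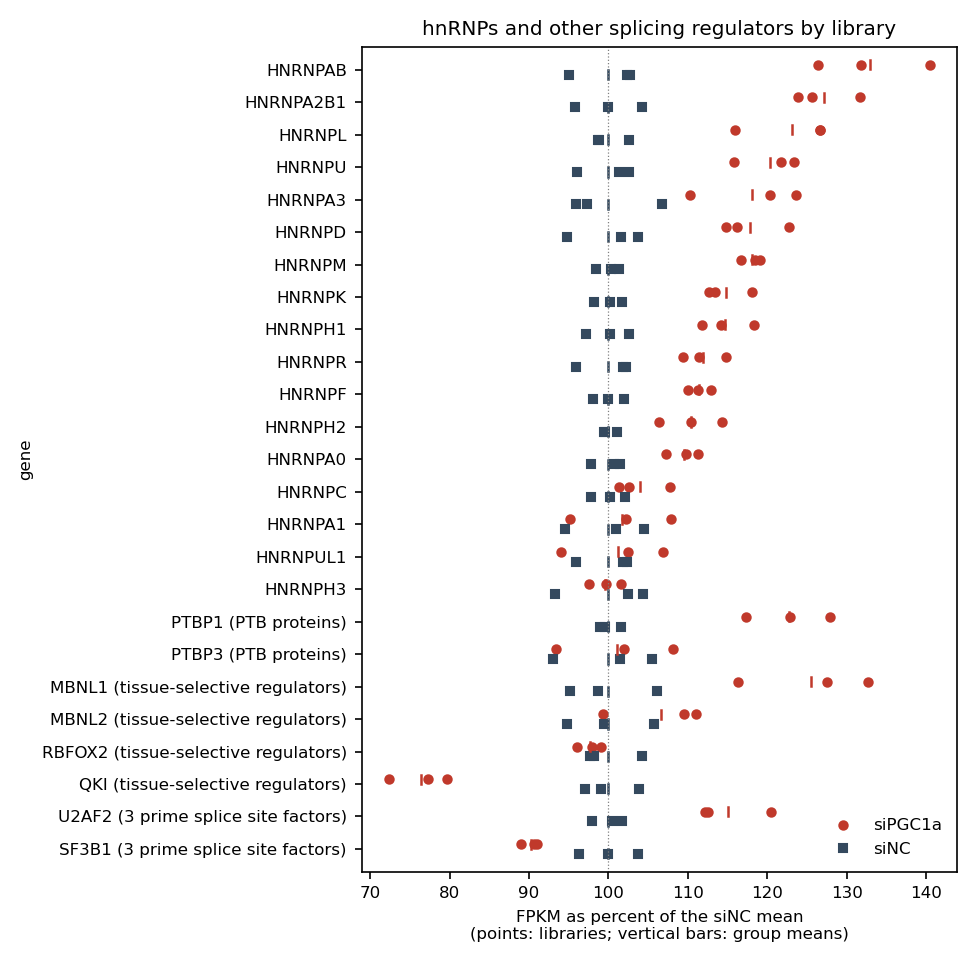
FPKM of each hnRNP, PTB protein, tissue-selective regulator and 3' splice site factor in each library, as percent of that gene's siNC mean (x axis), with siPGC1a libraries as red circles above siNC libraries as dark squares and group means as vertical bars. The 13 hnRNPs from HNRNPAB to HNRNPA0 lie to the right of their siNC libraries without overlap, and QKI and SF3B1 lie to the left.

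PTB proteins bind pyrimidine-rich tracts and repress exons. PTBP1 had 55.0, 57.2 and 52.5 FPKM in siPGC1a libraries and 44.6, 45.4 and 44.2 FPKM in siNC libraries, without overlap (ratio 1.23, log2 fold change 0.29, SE 0.041, limma adjusted p = 0.000414). PTBP3 did not pass, at 4.94 ± 0.362 FPKM in siPGC1a and 4.89 ± 0.312 FPKM in siNC libraries (n = 3 each, limma adjusted p = 0.876). PTBP2, the neuronal paralog whose transcript PTBP1 is known to send to decay, was at 0.308, 0.338 and 0.335 FPKM in siPGC1a and 0.298, 0.302 and 0.263 FPKM in siNC libraries, which rests on 86 to 113 reads. Without the filter on low values its adjusted p was 0.543.

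Among the tissue-selective regulators 1 rose, 1 fell and 2 did not pass, and ESRP1 was below the filter. QKI, a KH-domain protein that controls exon choice and circular RNA formation during epithelial-mesenchymal transition, fell most of all members tested. It had 14.8, 13.4 and 14.4 FPKM in siPGC1a libraries and 19.3, 18.0 and 18.4 FPKM in siNC libraries, so the groups were far apart (ratio 0.764, log2 fold change -0.37, SE 0.048, limma adjusted p = 0.000242). MBNL1, a zinc-finger regulator of developmental exons, rose, with 11.8, 10.3 and 11.3 FPKM in siPGC1a and 9.42, 8.44 and 8.75 FPKM in siNC libraries (ratio 1.25, log2 fold change 0.30, SE 0.058, limma adjusted p = 0.00231). The most abundant gene of this list, MBNL2, had 35.8, 32.0 and 35.3 FPKM in siPGC1a and 34.1, 32.1 and 30.6 FPKM in siNC libraries and its groups overlapped (limma adjusted p = 0.206). RBFOX2, which binds GCATG, was at 20.9 ± 0.327 FPKM in siPGC1a and 21.4 ± 0.777 FPKM in siNC libraries (n = 3 each, limma adjusted p = 0.551).

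ESRP1, the regulator of epithelial splicing, had 0.409, 0.538 and 0.63 FPKM in siPGC1a libraries and 1.09, 1.07 and 1.06 FPKM in siNC libraries. The groups did not overlap and 50.9% of the level was lost, on 51 to 140 reads per library. It entered the test only without the filter, with a log2 fold change of -0.44 and a limma adjusted p of 0.0102. The exact two-sided permutation test again gave 0.1.

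At the 3' splice site the members went apart. U2AF2, the large U2AF subunit that binds the polypyrimidine tract, had 71.2, 76.5 and 71.4 FPKM in siPGC1a and 62.2, 64.6 and 63.7 FPKM in siNC libraries (ratio 1.15, log2 fold change 0.20, SE 0.041, limma adjusted p = 0.00311). SF3B1, the U2 snRNP subunit that clamps the branch site, had 31.2, 30.5 and 31.1 FPKM in siPGC1a and 35.6, 33.0 and 34.2 FPKM in siNC libraries (ratio 0.902, log2 fold change -0.14, SE 0.04, limma adjusted p = 0.0154). Neither gene's groups overlapped, but the SF3B1 call ended without siNC replicate 1 (adjusted p = 0.0597) and without siNC replicate 3 (0.0573). U2AF1, which every cell uses to read the AG at the end of introns, was listed at 0 in all 6 libraries, as was its near-identical copy U2AF1L5, so its level could not be analysed here.

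**Figure D3:**
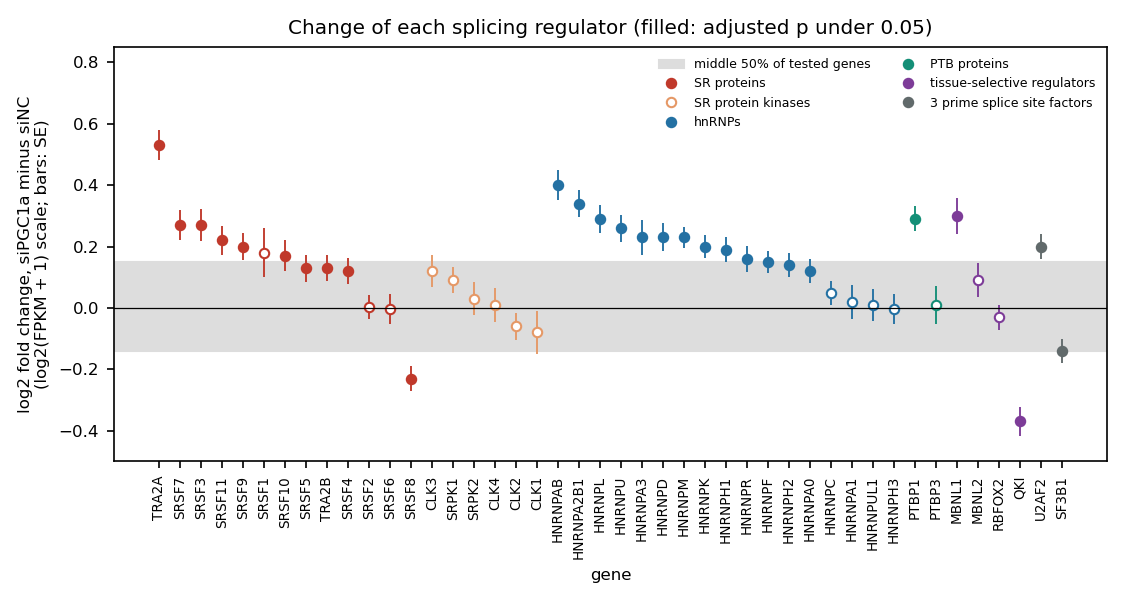
Log2 fold change of each of the 44 tested members, siPGC1a minus siNC in log2(FPKM + 1) units (y axis, bars are SE), by list; filled points passed an adjusted p of 0.05 and the grey band holds the middle 50% of tested genes. Most SR proteins and hnRNPs lie above 0, TRA2A is highest at 0.53, and QKI, SRSF8 and SF3B1 are the filled points below 0.

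Libraries of a group did not spread evenly. Of the 44 tested members, siPGC1a replicate 3 held the highest siPGC1a value for 26 and siPGC1a replicate 2 the lowest for 27. Among siNC libraries replicate 1 held the highest value for 29 and replicate 2 the lowest for 27. Whether this order has a part in the results was not tested.

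The 3 tested members that fell share a sequence feature in their 3' UTRs, the 6-base word ACACCT, which is shown here because it is more frequent in the 3' UTRs of lower genes of these libraries. In the longest annotated 3' UTR of each gene (GENCODE 29, read 5' to 3' on the transcript), the word stands at 3 places in QKI and at 2 places each in SRSF8 and SF3B1. The sites follow with the word in capitals, and positions are counted from the first base after the stop codon. The site of SRSF2, which did not pass, is given after them because 23 of its 30 bases equal those of the first SRSF8 site, in place. That number includes the 6 bases of the word, and for the second SRSF8 site it is 12. The sites of HNRNPA0, which rose, are given because it holds as many sites as QKI.
QKI, site at base 726: aatctttattttACACCTaaaaaaatatga
QKI, site at base 2001: gtcccctcttccACACCTtcccagcatcac
QKI, site at base 3411: attactaattccACACCTtatttttccttc
SRSF8, site at base 816: ctgacgataatcACACCTtttcccccgtct
SRSF8, site at base 1222: tcttttttcctcACACCTatggttttttta
SF3B1, site at base 39: cacagctacttcACACCTtaaacttgcttt
SF3B1, site at base 2084: aaggagactgttACACCTtaattaactttt
SRSF2, site at base 1835: ctgatgataaatACACCTttttttccctct
HNRNPA0, site at base 2252: aattggaatagtACACCTttctcagggttt
HNRNPA0, site at base 3837: ggattcaggaagACACCTttggtagttatt
HNRNPA0, site at base 7222: gatttatgctaaACACCTgctttccttctg

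The word was held by 3 of the 3 members that fell, by 7 of the 25 that rose (28.0%) and by 4 of the 16 that did not pass. Over all 10784 tested genes with an annotated 3' UTR it was held by 48.6% of the lower, 22.6% of the higher and 32.8% of the other genes, whose median 3' UTR lengths were 1774, 1097 and 1369 bases. The members' 3' UTRs were longer, with medians of 3149 bases for the 3 that fell, 1501 for those that rose and 2123 for those that did not pass, and a longer 3' UTR has more places for any word. The members that rose and hold 2 or more sites were HNRNPA0, HNRNPA3, HNRNPK and HNRNPR. ESRP1 holds the word at 2 places and so does RBFOX2, which did not pass. Since the word came from these same libraries, its presence in the members that fell is not independent evidence. The sequence of neither siRNA was given in the sources used here, and whether the word has a part in these falls was not tested.

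**Figure D4:**
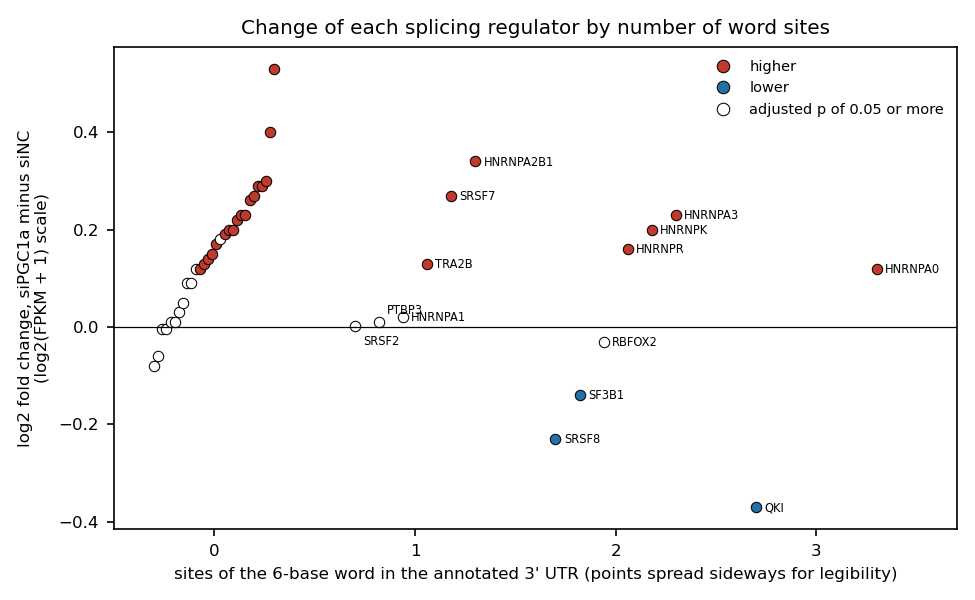
Log2 fold change of each tested member, siPGC1a minus siNC in log2(FPKM + 1) units (y axis), by the number of sites of the 6-base word in its longest annotated 3' UTR (x axis, points spread sideways within a number); red is higher, blue lower and white not past the threshold. QKI with 3 sites and SRSF8 and SF3B1 with 2 sites are the blue points, while HNRNPA0 with 3 sites is red.

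Promoters were searched for 4 motifs, since PGC1-alpha is known to act through the nuclear receptor ERR-alpha and the factor NRF1. RefSeq promoters (250 bases before to 50 after the first listed start, GRCh38.p14) matched 41 of the 47 members, all but SRSF2, TRA2A, HNRNPA1, ESRP1, RBFOX2 and QKI. Both strands were searched for the letters AAGGTCA (ERR half-site), GCATGCGC (NRF1 core), CCGGAAG (ETS core) and CACGTG (E-box). SRSF8 and SRPK2 held AAGGTCA (4.88% of member promoters, against 3.97% of all 27305 and 2.33% of tested-gene promoters), and SRSF10 and U2AF1 held GCATGCGC (4.88%, against 3.27% of all and 5.86% of tested-gene promoters). CCGGAAG was in SRSF4, SRSF5, HNRNPD, HNRNPF and U2AF2 (12.2%, against 10.7% of all and 20.4% of tested-gene promoters). These 5 genes were all higher. CACGTG was in 9 promoters (22.0%, against 7.43% of all and 10.4% of tested-gene promoters), of which 4 belonged to higher genes and 1, SF3B1, to a lower gene. Of the 44 tested members 56.8% were higher and 6.82% lower, whatever their motifs. The calls of all tested genes with each motif were not counted, and whether a motif has a part was not tested. The GC content of member promoters had a median of 64.0%, against 65.3% in tested-gene promoters.

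The promoters of the SR protein that fell and of 2 members that rose show these motifs in capitals, with positions counted from 1 at the 5' end. In SRSF8 and for the ETS core of HNRNPD the motif lies on the other strand, so its reverse complement is seen. SRSF8 holds the ERR half-site at base 187, SRSF10 the NRF1 core at base 103, and HNRNPD an ETS core at base 68 and an E-box further on. A match is a match of letters, and the table analysed here holds no binding data. The coordinates are of GRCh38.p14, whereas the submitters' processing notes for the expression values name hg19.
SRSF8 promoter, GRCh38.p14, chr11:95066627-95066926, plus strand: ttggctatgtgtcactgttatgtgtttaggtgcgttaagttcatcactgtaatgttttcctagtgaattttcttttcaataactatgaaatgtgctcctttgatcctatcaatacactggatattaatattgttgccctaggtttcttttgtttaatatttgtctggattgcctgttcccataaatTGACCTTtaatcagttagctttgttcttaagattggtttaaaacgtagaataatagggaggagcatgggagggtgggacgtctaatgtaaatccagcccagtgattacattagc
SRSF10 promoter, GRCh38.p14, chr1:23980278-23980577, minus strand: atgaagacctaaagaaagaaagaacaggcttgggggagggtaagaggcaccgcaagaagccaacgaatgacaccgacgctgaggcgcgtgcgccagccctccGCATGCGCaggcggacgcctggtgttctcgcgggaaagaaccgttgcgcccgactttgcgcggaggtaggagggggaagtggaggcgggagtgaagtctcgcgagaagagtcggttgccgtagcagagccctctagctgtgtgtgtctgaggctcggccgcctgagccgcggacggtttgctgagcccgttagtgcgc
HNRNPD promoter, GRCh38.p14, chr4:82373942-82374241, minus strand: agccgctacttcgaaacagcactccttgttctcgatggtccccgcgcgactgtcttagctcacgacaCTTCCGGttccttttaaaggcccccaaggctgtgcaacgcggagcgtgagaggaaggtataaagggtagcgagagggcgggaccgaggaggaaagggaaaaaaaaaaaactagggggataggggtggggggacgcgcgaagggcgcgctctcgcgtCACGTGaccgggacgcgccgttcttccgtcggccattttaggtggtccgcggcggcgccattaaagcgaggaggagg

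The wider splicing machinery was compared through 8 lists of 129 further genes, of which 123 had at least 1 FPKM. Of these 63 were higher, 6 were lower and 54 did not pass (51.2% and 4.88%), with a median log2 fold change of 0.14. Over all tested genes 25.6% were higher and 22.5% lower, with a median of 0.01. At a mean of at least 5 FPKM, 66 of 112 wider genes were higher and 6 lower. Of all genes at that level 34.6% were higher and 22.1% lower. The lists were chosen with earlier results of these data known. Of the core snRNP lists, those that rose were 3 of 3 U1 snRNP proteins, 13 of 17 tri-snRNP proteins, 9 of 14 Sm and LSm proteins, and 9 of 16 U2 snRNP and branch site proteins. SNRPB2, a U2 snRNP protein, had 148.9, 141.4 and 168.5 FPKM in siPGC1a and 99.1, 87.6 and 93.6 FPKM in siNC libraries (log2 fold change 0.70, SE 0.066, limma adjusted p = 3.67e-05). SNRPB, a protein of the Sm ring that U1, U2, U4 and U5 snRNPs carry, had 235.1, 250.2 and 240.1 FPKM in siPGC1a and 159.4, 173.0 and 173.1 FPKM in siNC libraries (log2 fold change 0.52, SE 0.044, limma adjusted p = 1.89e-05). Both genes changed without overlap between groups, as did SNRNP70 of U1 snRNP (ratio 1.34), TXNL4A of the tri-snRNP (1.3) and the helicase DHX15 (1.27).

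SF3B6, which sits beside the branch site, went the other way, with 48.3 ± 2.85 FPKM in siPGC1a and 60.6 ± 1.41 FPKM in siNC libraries (n = 3 each, limma adjusted p = 0.000458). Of 24 PRP19 complex and catalytic step proteins 11 rose, 1 fell and 12 did not pass, and the helicase DHX8 was the one that fell (ratio 0.849). Of 29 other hnRNP-type and RNA-binding regulators 14 rose, 2 fell and 13 did not pass, from KHSRP, which binds AU-rich RNA (ratio 1.31), to MBNL3, the third muscleblind protein (ratio 0.683). SR-related proteins gave 4 higher, 1 lower and 12 not past of 17, a share of higher genes (23.5%) near that of all tested genes. Among them RNPS1, an exon junction protein, rose (ratio 1.17) and SON, a nuclear speckle scaffold, fell (ratio 0.922). Of the 3 other kinases of SR proteins above 1 FPKM, DYRK1B fell (ratio 0.856) and PRPF4B and DYRK1A did not pass. Whether lists differ from each other was not tested.

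**Figure D5:**
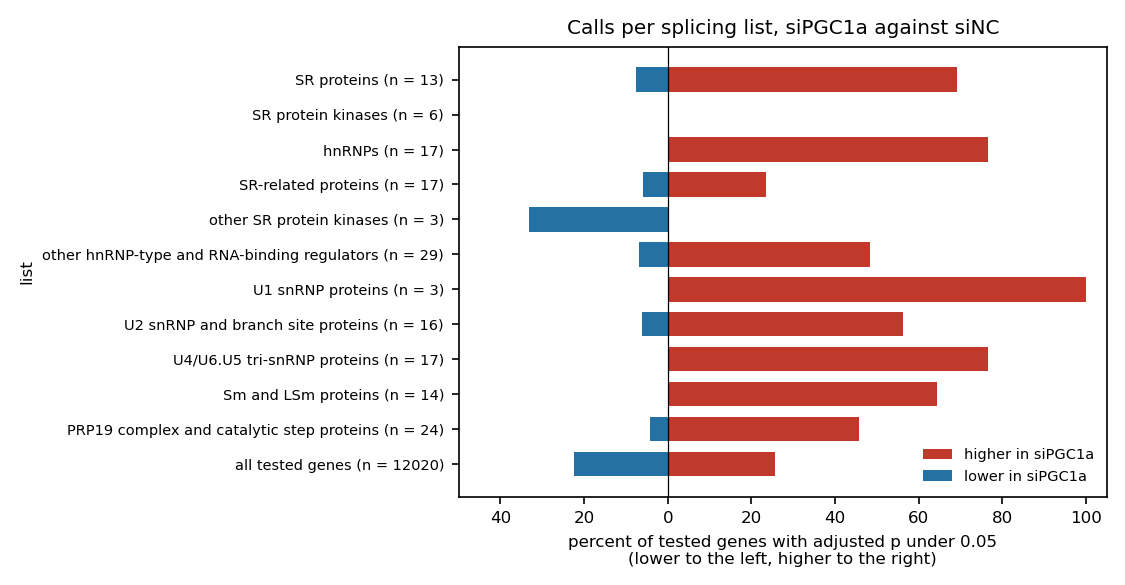
Percent of the tested genes of each splicing list that passed an adjusted p of 0.05 as higher (red, to the right) or lower (blue, to the left) in siPGC1a against siNC libraries, with all 12020 tested genes in the bottom row. SR proteins, hnRNPs and the snRNP lists have more higher than lower genes, SR-related proteins are near the bottom row on the higher side, and the SR protein kinases have no bar.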

How the data were processed

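RNA sequencing libraries were made with the Illumina TruSeq Stranded mRNA kit and read as single reads, per the labels' protocols. The deposited values are FPKM per gene symbol and library, computed by the authors. The submitters' processing notes name hg19 and the tools STAR, Picard, featureCounts and DESeq2, with no version or role, and the strand setting is not given in the sources used here. All 6 columns matched a sample title. Genes with a mean of at least 1 FPKM, and PPARGC1A, were tested as log2(FPKM + 1) with limma 3.58.1 (trend, two-sided, no replicate block) in R 4.3.3, adjusted over 12020 genes. Fold changes on this scale understate the change of low genes. The fit was run on simulated data with fewer changed genes than were called here and with larger changes than nearly all members showed. That run does not bear on how well small changes are found. Exon lengths, 3' UTRs and strand overlaps came from GENCODE 29 (GRCh38). Depth was the read number at which 91.2 to 91.6% of values of at most 20 reads were whole within 0.1 read, and read numbers per gene are approximate. Other settings were pseudocounts of 0.1 and 0.01, no filter, at least 5 FPKM, quantile and median scaling, sample weights, a replicate block, and leaving out each library.

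The members and the lists were chosen with earlier results of these data known. Values in every library are given, in each list, for up to 3 called members with the largest rise, up to 3 with the largest fall and the most abundant, and in the wider lists the largest called rise and fall are named. Values by library for SRSF1, PTBP2 and ESRP1, and the sites and promoters printed, were chosen after their values were seen.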

Additional observations from a re-analysis of the deposited data

How the results depend on the processing

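Of the 25 members called higher, 17 kept their call under all 14 other settings, and of the 3 called lower 2 did, QKI and SRSF8. SRSF4, SRSF5, SRSF10, TRA2B, HNRNPA0, HNRNPF, HNRNPH2 and HNRNPR lost their call in at least 1 setting, HNRNPF in quantile scaling alone (adjusted p = 0.352). Quantile scaling ended 7 of these 8 calls, all but that of SRSF10. It left 6 SR proteins and kinases higher, against 9, and 12 other regulators, against 16. Of the wider genes it left 48 higher, against 63, and 9 lower, against 6. Without the filter on low values 6 SR proteins and kinases, 16 other regulators and 47 wider genes were higher. The calls of SRSF4, SRSF5 and SRSF10 ended there (limma adjusted p of 0.0709, 0.0841 and 0.0664). Median scaling ended the call of SRSF5 (0.0514). Leaving out single libraries gave 5 to 10 SR proteins and kinases higher, against 9 with all libraries, and 1 to 2 other regulators lower, against 2. All tested genes gave 1607 lower calls at a mean of at least 5 FPKM, where 7272 genes were tested. That filter put 61.1% of all calls on the higher side, against 53.2% at 1 FPKM. No scaling moved the median of all tested genes by over 0.1, but that median does not show what scaling did to abundant genes. Quantile scaling lowered the log2 fold change of each of the 25 members called higher, for instance HNRNPAB from 0.4 to 0.32 and HNRNPK from 0.2 to 0.12. Some members near 0 changed sign without being called. Under quantile scaling SRSF2 stood at -0.06, HNRNPA1 at -0.02, HNRNPC at -0.01 and HNRNPUL1 at -0.06, under median scaling SRSF2 at -0.00091, and with sample weights SRSF6 at 0.04. Without single libraries the ranges of log2 fold changes were -0.02 to 0.03 for SRSF2, -0.03 to 0.04 for SRSF6, -0.01 to 0.07 for SRPK2, -0.01 to 0.04 for CLK4, -0.02 to 0.07 for HNRNPA1, -0.05 to 0.03 for HNRNPH3, -0.03 to 0.07 for HNRNPUL1 and -0.03 to 0.06 for PTBP3. The cause was not tested. Same-numbered libraries of the groups had correlations of deviations of 0.08, 0.26 and -0.06, and differently numbered ones ran from -0.33 to 0.25. These values do not settle whether the numbers pair the samples. With the replicate block 3253 genes were higher and 2826 lower, SRSF1 passed (adjusted p = 0.03) and no member lost its call. MBNL2 passed with sample weights alone (adjusted p = 0.0407). With 3 libraries a group, changes of a few percent could not be resolved.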
